A study of Mus musculus with 12 samples.

Results

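The renin-angiotensin system genes examined here were 8 mouse genes: Agt, Ren1, Ace, Enpep, Agtr1a, Agtr1b, Agtr2 and Agtrap. They were chosen by name, from the gene name in the array files or the symbol of the file's Entrez number, and all 8 were found, on 12 of 61657 spots that are not controls and among 26228 named genes. RNA from female B6C3F1/Nctr mice was measured on 12 one-colour (Cy3) Agilent expression arrays, 3 in each of 4 groups: lung with acrylamide at 0.7 mM, lung without acrylamide, liver with acrylamide at 0.7 mM and liver without acrylamide. The controls were age-matched according to the design text, but their age, the route of exposure and its duration were not given in the sources used here. An array's name joins its tissue and treatment with the number from its title.

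The system is a hormone cascade that controls blood pressure, salt balance and vascular growth. The liver secretes angiotensinogen, the kidney enzyme renin cuts it to angiotensin I, and angiotensin-converting enzyme, abundant on the endothelium of lung capillaries, turns that into angiotensin II. Angiotensin II acts mainly through the AT1 receptor and is broken down by aminopeptidases.

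The tissue entry of all 12 arrays says liver, whereas titles and source names of 6 say lung, so defining markers were checked first. All 7 alveolar type 2 cell markers were called higher in lung control than in liver control arrays, and all 8 hepatocyte markers were called lower. The mean log2 level of the alveolar type 2 markers, relative to each array's 75th percentile, was 5.89 to 6.15 on the arrays titled lung and -3.98 to -0.95 on those titled liver. For the hepatocyte markers it was -0.66 to 0.59 on lung arrays and 8.27 to 8.82 on liver arrays, so the arrays are called by their titles. The first number of the title code follows the tissue. The labels do not say what it stands for, and a batch it may mark cannot be told apart from tissue. Lung arrays were brighter, with 75th percentiles between 839.4 and 1376, against 294.5 and 621.5 for liver arrays. Liver acrylamide 30 stood apart, with 34287 spots above a background limit of 16.8, whereas the other arrays had 46450 to 51099 spots above limits of 2.35 to 4.45.

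Levels below are scaled intensities, meaning intensities with the 75th percentile of each array set to 1000, and they are compared between arrays for 1 spot and never between genes. Differences are on the log2 scale. Above background means brighter than the 95th percentile of the array's negative control spots. A gene was called changed at a Benjamini-Hochberg adjusted p under 0.05 from limma over all genes tested. The labels do not say whether the arrays of 1 group stand for different animals, so the p-values rest on the spread between samples alone, and part of it may be technical.

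The start-site windows of 3 members are shown because they stand for the substrate and the enzymes whose levels separated the tissues. Each runs from 250 bases before to 50 bases after the RefSeq start (GRCm38.p6), 5′ to 3′ on the gene's strand, and capitals mark TATAAA or its reverse complement TTTATA and, in Ace, also GGGCGG. The Agt window is chr8:124569657-124569956 on the minus strand, the Ren1 window chr1:133350424-133350723 on the plus strand and the Ace window chr11:105967698-105967997 on the plus strand.
Agt: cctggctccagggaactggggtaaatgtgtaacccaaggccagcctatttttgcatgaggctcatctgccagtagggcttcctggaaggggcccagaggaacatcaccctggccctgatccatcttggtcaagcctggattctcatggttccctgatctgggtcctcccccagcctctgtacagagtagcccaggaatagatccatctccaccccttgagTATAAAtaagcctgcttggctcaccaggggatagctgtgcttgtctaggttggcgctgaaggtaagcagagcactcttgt
Ren1: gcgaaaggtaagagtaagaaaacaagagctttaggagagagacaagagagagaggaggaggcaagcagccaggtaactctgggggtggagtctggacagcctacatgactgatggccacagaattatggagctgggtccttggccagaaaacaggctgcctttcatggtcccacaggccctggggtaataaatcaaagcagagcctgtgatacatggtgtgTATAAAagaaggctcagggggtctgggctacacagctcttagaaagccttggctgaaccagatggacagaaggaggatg
Ace: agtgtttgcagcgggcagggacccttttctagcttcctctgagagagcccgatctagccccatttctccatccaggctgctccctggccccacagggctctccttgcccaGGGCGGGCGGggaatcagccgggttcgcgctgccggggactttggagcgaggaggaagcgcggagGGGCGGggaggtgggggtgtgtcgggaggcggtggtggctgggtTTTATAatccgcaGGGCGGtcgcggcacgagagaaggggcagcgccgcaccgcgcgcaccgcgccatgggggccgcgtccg
The letters TATAAA began 30 bases before the start of Agt and 29 bases before that of Ren1. In Ace the match lay on the opposite strand, from 31 bases before the start, among 4 copies of GGGCGG, of which the first 2 overlap. Searching both strands, 5 of the 7 members with a window in the table (8 windows, Ace having 2) held TATAAA, against 13.62% of all 32851 windows. CCAAT was found in 4 of the 7, against 37.41% of windows, GGGCGG in 2 of the 7, against 35.66%, and TGTTTAC in none, against 3.65%. Agtr1a had no entry. A match is a description of these letters and not a binding site.

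The first comparison set lung against liver. Agt, the angiotensinogen gene and sole substrate of the cascade, was far lower in lung than in liver. With acrylamide its scaled intensity was 471, 439 and 306 on lung arrays 28, 29 and 30, against 135529, 151923 and 192461 on liver arrays 27, 29 and 30. Without acrylamide it was 360, 323 and 352 on lung control arrays 4, 5 and 6, against 170982, 202917 and 188917 on liver control arrays 1, 3 and 4. The tissues did not overlap. The difference of Agt, lung minus liver, was -8.63 ± 0.18 log2 units in acrylamide arrays (SE, n = 3 per group, limma adjusted p = 1.87e-10), a 397-fold difference, and -9.08 ± 0.18 in control arrays (adjusted p = 1.47e-10), a 543-fold difference. Of 23283 genes tested, 307 differed by more than Agt between acrylamide arrays and 264 between control arrays. Hepatocyte markers moved with it: their summed scaled intensity was 15243 to 34325 on lung arrays, where all 8 were above background, and 2779080 to 4532440 on liver arrays, and their part in the result was not tested. In such tissue RNA, fewer cells of a type and less RNA per cell cannot be told apart.

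Ren1 encodes renin, the protease that starts the cascade, and its main site is the juxtaglomerular cell of the kidney. Its spot was above background on all 12 arrays. With acrylamide it read 38.5, 38.4 and 46.1 on lung arrays, against 240, 212 and 297 on liver arrays. It read 38.0, 43.8 and 42.8 on lung control arrays, against 267, 198 and 250 on liver control arrays. Lung was lower without overlap, with a difference of -2.60 ± 0.16 log2 units in acrylamide arrays (SE, n = 3 per group, limma adjusted p = 2.02e-07) and of -2.51 ± 0.16 in control arrays (adjusted p = 2.61e-07). The array also carries a spot for Ren2, a near-identical renin gene that some mouse strains have. Which renin RNA either spot binds was not tested, so a signal at the Ren2 spot does not show that these mice carry Ren2. The Ren2 spot read 35.4 to 53.0 on the 6 lung arrays and 57.8 to 158 on the 6 liver arrays. Summed kidney markers were 799 to 1303 on lung arrays and 426 to 1220 on liver arrays, and of the 6 tested markers 1 was called higher and 3 lower in lung control arrays. Among the 7 kidney markers, Umod, Slc12a1, Slc34a1 and Kap were above background on all 6 liver arrays, Nphs1 on 5 and the transporter gene Slc12a3 on none, and their part in the result was not tested.

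Ace, which makes angiotensin II and also inactivates bradykinin, ran the other way. With acrylamide it read 1941, 1695 and 1706 on lung arrays, against 154, 235 and 115 on liver arrays. It read 1490, 1813 and 1923 on lung control arrays, against 156, 129 and 260 on liver control arrays. The lowest lung array thus exceeded the highest liver array. Ace was higher in lung by 3.46 ± 0.30 log2 units in acrylamide arrays (SE, n = 3 per group, limma adjusted p = 1.98e-06), an 11.04-fold difference, and by 3.32 ± 0.30 in control arrays (adjusted p = 2.75e-06), a 10.004-fold difference. Of 9 endothelial markers, 8 were called higher in lung in either set of arrays and the liver sinusoid gene Stab2 was called lower. Their summed level was 67743 to 88852 on lung arrays and 22806 to 27133 on liver arrays, and their part in the result was not tested.

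Enpep, the aminopeptidase A gene whose product cuts angiotensin II to angiotensin III, was bright in both tissues. With acrylamide it read 7725, 8517 and 9866 on lung arrays, against 11806, 12603 and 6168 on liver arrays. It read 8856, 8986 and 12683 on lung control arrays, against 8337, 8799 and 7757 on liver control arrays. The control arrays did not overlap, but by a narrow gap. The difference, lung minus liver, was -0.17 ± 0.26 log2 units in acrylamide arrays (95% confidence interval -0.75 to 0.41, SE, n = 3 per group, limma adjusted p = 0.577) and 0.28 ± 0.26 in control arrays (-0.31 to 0.86, adjusted p = 0.358). Its sign in acrylamide arrays turned under quantile normalization, to 0.27, and under median scaling, to 0.0098. Without liver acrylamide 30, Enpep was called lower in lung acrylamide arrays, at -0.49 (adjusted p = 0.0293). Under quantile normalization it was called higher in lung control arrays, at 0.73 (adjusted p = 0.0246).

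Among the receptors, Agtr1a, the main AT1 receptor of rodents, was lower in lung. With acrylamide it read 1019, 817 and 883 on lung arrays, against 14262, 14938 and 10964 on liver arrays. It read 693, 796 and 1118 on lung control arrays, against 11619, 10954 and 12803 on liver control arrays. No lung array reached a liver array, and the difference, lung minus liver, was -3.88 ± 0.19 log2 units in acrylamide arrays (SE, n = 3 per group, limma adjusted p = 3.25e-08) and -3.79 ± 0.19 in control arrays (adjusted p = 3.98e-08).

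Agtr1b, the second rodent AT1 receptor gene, was measured in lung and not above background on any of the 6 liver arrays at its brighter spot. In lung with acrylamide that spot read 41.0, 50.8 and 65.1, against 4.0, 5.6 and 45.4 in liver with acrylamide, where the last value is that of array 30 with its high background limit. It read 45.8, 55.8 and 58.5 on lung control arrays, against 5.6, 4.5 and 5.7 on liver control arrays. The difference between group means, with all arrays and the scaling above, is therefore given as a bound. It takes the lowest signal above background on each liver array or the spot's own signal where that was higher. By group means, Agtr1b was at least 4.14-fold higher in lung acrylamide arrays and at least 8.003-fold higher in lung control arrays. These bounds do not cover other scalings, spots or sets of arrays. In acrylamide arrays the tissues overlapped, with liver array 30 at 45.4 above the lung value of 41.0. The limma tests used the measured differences. These were 2.36 log2 units in acrylamide arrays (adjusted p = 0.0129) and 3.34 in control arrays (adjusted p = 0.00179). The call in acrylamide arrays was lost without liver acrylamide 29, at 1.94 log2 units (adjusted p = 0.0504). The difference in acrylamide arrays was 1.69 without liver acrylamide 27 (adjusted p = 0.0484) and 3.45 without liver acrylamide 30 (adjusted p = 7.73e-07), against 2.36 with all arrays.

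Agtr2, the receptor that opposes many AT1 effects and is abundant in the fetus, was dim everywhere. With acrylamide it read 19.8, 21.3 and 12.6 on lung arrays, against 34.5, 33.8 and 47.7 on liver arrays. It read 11.2, 17.1 and 19.5 on lung control arrays, against 51.9, 20.8 and 41.2 on liver control arrays, and it was above background on every array but liver acrylamide 30. Scaled levels were lower in lung without overlap, with a difference of -1.13 ± 0.36 log2 units in acrylamide arrays (SE, n = 3 per group, limma adjusted p = 0.0151) and of -1.19 ± 0.36 in control arrays (adjusted p = 0.0116). Before scaling, its intensities overlapped, at 12.3 to 24.0 on lung arrays and 9.30 to 25.0 on liver arrays. The call was lost under quantile normalization in acrylamide arrays (-0.77, adjusted p = 0.0589) and in control arrays (-0.79, adjusted p = 0.0539). In acrylamide arrays it was also lost without lung acrylamide 30 (-0.90, adjusted p = 0.0613) and without liver acrylamide 30 (-0.97, adjusted p = 0.0503).

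Agtrap encodes a membrane protein that binds the AT1 receptor and promotes its internalization. With acrylamide its brightest spot read 2130, 2118 and 1793 on lung arrays, against 533, 463 and 579 on liver arrays. It read 1890, 2016 and 2244 on lung control arrays, against 535, 386 and 496 on liver control arrays. Lung was higher without overlap, by 1.94 ± 0.15 log2 units in acrylamide arrays (SE, n = 3 per group, limma adjusted p = 1.14e-06) and by 2.13 ± 0.15 in control arrays (adjusted p = 5.64e-07).

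**Figure D1:**
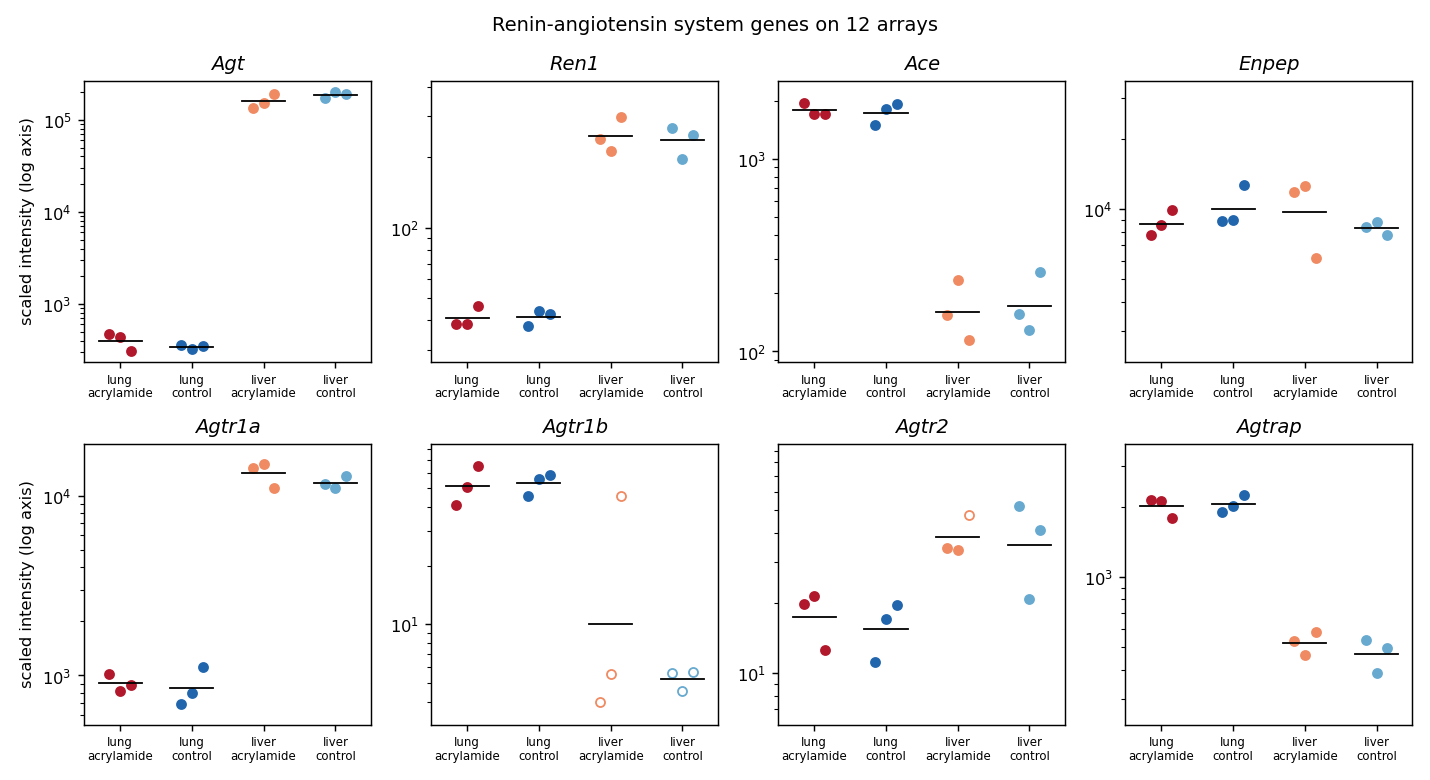
Scaled intensity (log axis, 75th percentile of each array at 1000) of the brightest spot of each member on 12 arrays, lung acrylamide, lung control, liver acrylamide and liver control from left to right. Points are arrays, hollow where the spot was not above background, and lines are group means of log2 values; Agt, Ren1 and Agtr1a are lower in lung, Ace and Agtrap are higher in lung, and acrylamide and control arrays of a tissue overlap for each member shown.

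Of the 8 members, 7 were called between acrylamide arrays, 3 higher and 4 lower in lung, and the same counts held between control arrays. The higher calls included Agtr1b, which was tested only because its spot was above background on the 6 lung arrays. On no liver array was that spot above background. The tissues differ broadly, however: 74.9% of 23283 genes were called between acrylamide arrays, 30.6% higher and 44.3% lower in lung, and 73.4% between control arrays, 30.5% higher and 42.9% lower. The members' share is near that background and says nothing particular about them. The groups did not overlap for 6 of 8 members in acrylamide arrays, against 78.4% of genes, and for 8 of 8 in control arrays, against 78.6%. The members' median difference was -0.65 in acrylamide arrays and -0.46 in control arrays, and that of all genes was -0.36 in acrylamide arrays and -0.34 in control arrays. Quantile normalization moved the median of all genes by 0.38 in acrylamide and 0.34 in control arrays, and median scaling by 0.18 and 0.20. Under quantile normalization 3 members were called higher and 3 lower in lung acrylamide arrays, and 4 higher and 3 lower in lung control arrays.

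**Figure D2:**
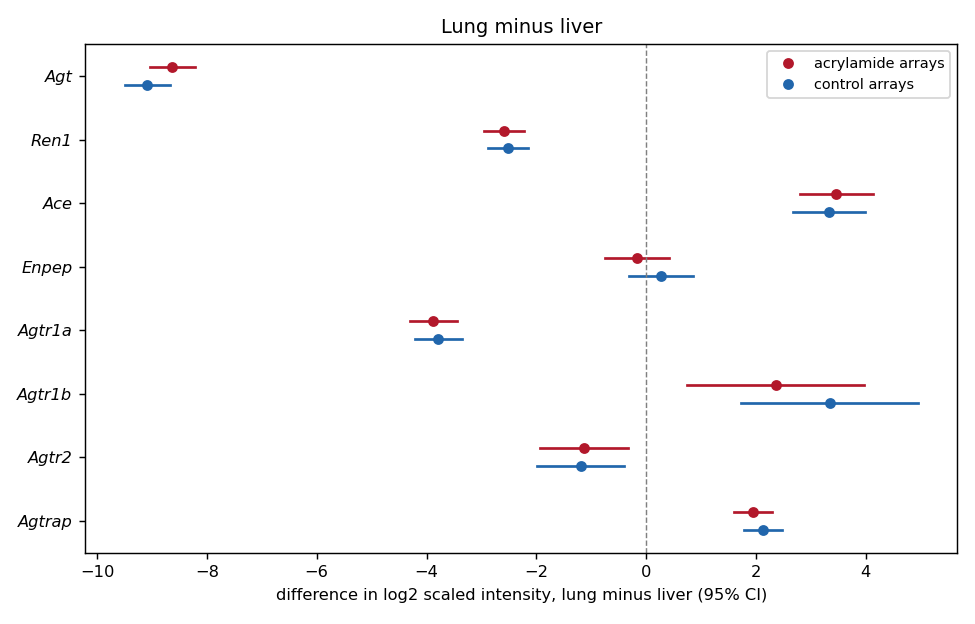
Lung minus liver difference in log2 scaled intensity for each member with its 95% confidence interval from limma, in acrylamide arrays (red, upper) and control arrays (blue, lower), n = 3 arrays per group. Agt has the largest difference, -9.08 in control arrays, and the intervals of Enpep include 0 in both sets; the Agtr1b points use liver values that were not above background.

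Spots of the same gene did not always give the same difference. For Agtrap, a dimmer spot gave 2.35 log2 units, lung minus liver, in acrylamide arrays and 2.48 in control arrays, near the brightest spot, whereas the third gave 0.47 in acrylamide arrays and 0.45 in control arrays. For Agtr1b, the second spot gave 0.67 in acrylamide arrays and 0.53 in control arrays, and its lung and liver arrays overlapped in both. For Enpep, the second spot gave -0.25 in acrylamide arrays and 0.27 in control arrays, with overlap in both. Both Enpep spots, read on the same arrays, were negative in acrylamide and positive in control arrays. They are not independent, and the brighter spot was called in neither set.

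**Figure D3:**
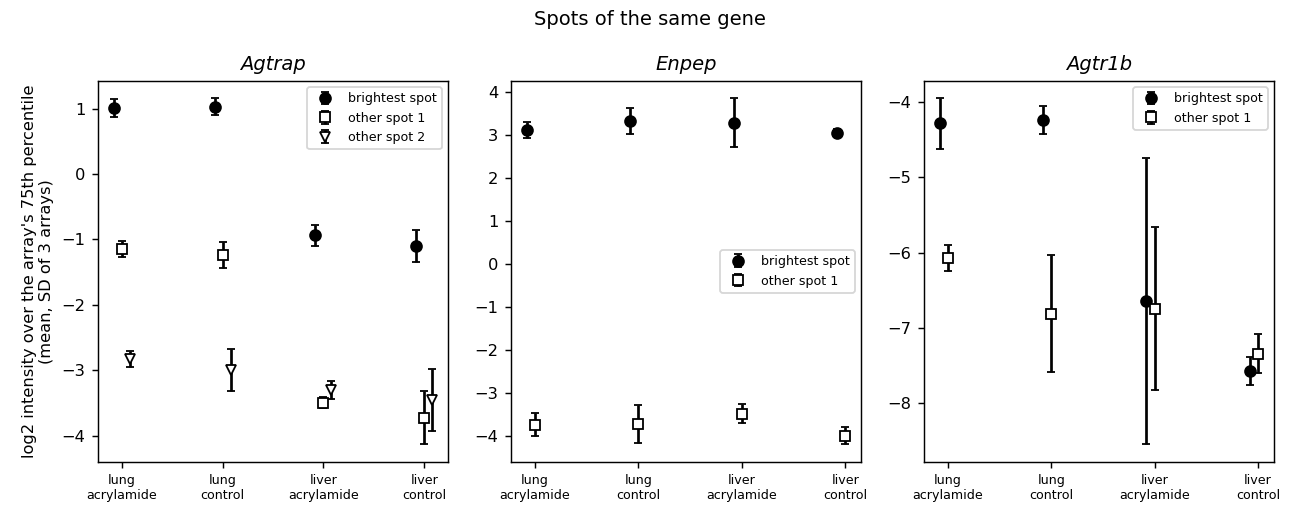
Log2 intensity over the array's 75th percentile for every spot of Agtrap (3 spots), Enpep (2) and Agtr1b (2), as mean and SD of the 3 arrays of each group, lung before liver and acrylamide before control. The third Agtrap spot separates the tissues by 0.45 log2 units in control arrays, against 2.13 at the brightest spot.

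The genes whose profile over the 12 arrays was most like that of Agt, by root mean square distance between centred log2 values among 23283 genes, were Asgr2 (0.101), an asialoglycoprotein receptor subunit of hepatocytes, Itih1 (0.193), a plasma protease inhibitor heavy chain, and Proc (0.198), the anticoagulant protein C. For Ace they were Ydjc (0.184), Epb41l1 (0.197), a membrane skeleton protein gene, and Hdgfl3 (0.212).

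Genes around the cascade were read from 5 lists. Their counts stand beside the shares of all genes tested. In acrylamide arrays 74.9% were called, 30.6% higher and 44.3% lower in lung. In control arrays 73.4% were called, 30.5% higher and 42.9% lower. Of 19 tested other angiotensin enzymes and receptors, 8 were called higher and 7 lower in lung in each set of arrays. Cpa3, the mast cell carboxypeptidase that can trim angiotensin I, was at least 2.82-fold higher in lung acrylamide arrays and 2.18 log2 units higher in lung control arrays (limma adjusted p = 0.0130), a call lost without lung control 5, at 1.80 log2 units. Its spot was above background on none of 3 liver acrylamide arrays and 1 of 3 liver control arrays. Ctsg, cathepsin G, which can make angiotensin II, differed by -3.06 in acrylamide arrays and by -3.29 in control arrays (limma adjusted p = 5.31e-05), and Klk1, tissue kallikrein, by -3.04 in acrylamide arrays and -2.61 in control arrays. Summed mast cell markers were 13811 to 19019 on lung arrays and 868 to 1554 on liver arrays. Of these 6 markers, Kit, Hdc, Tpsb2 and Fcer1a were above background on all 12 arrays, Ms4a2 on 6 lung arrays and 1 liver array, and the tryptase gene Tpsab1 on 1 of 6 lung arrays and on none of 6 liver arrays. Median levels were higher on lung arrays for Hdc (12552 against 299 on liver arrays) and Kit (4329 against 384). They were lower on lung arrays for Tpsb2 (315 against 594) and Fcer1a (30.2 against 61.1). In lung control arrays 3 of 5 tested markers were called higher and 0 lower, and in lung acrylamide arrays 2 higher and 2 lower. Their part in the Cpa3 difference was not tested.

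Of 12 tested genes of aldosterone synthesis and mineralocorticoid response, 3 were called higher and 5 lower in lung in each set. Among all genes 74.9% were called in acrylamide arrays and 73.4% in control arrays. Scnn1g, a subunit of the epithelial sodium channel, averaged 6427 ± 907 in lung control arrays and 9.62 ± 5.26 in liver control arrays (SD, n = 3 each), and its difference was 9.22 log2 units in acrylamide arrays and 9.51 in control arrays. Its spot was above background on 1 of 3 liver arrays in each set, so these sizes rest partly on liver values at background. Scnn1a, another subunit, differed by 2.63 in both sets. Fkbp5, a steroid receptor co-chaperone, differed by -3.36 in control arrays (limma adjusted p = 1.54e-06). Of the adrenal steroid enzyme genes, Cyp21a1 differed by -2.60 in acrylamide arrays, and Cyp11b1 by -2.86 in acrylamide arrays and -2.88 in control arrays. The Cyp11b1 spot was above background on 1 of 3 lung arrays in each set, so these sizes rest partly on lung values at background. The call of Cyp11b1 in acrylamide arrays was lost under quantile normalization, at -1.26. Summed adrenal cortex markers were 198 to 297 on lung arrays and 4226 to 6083 on liver arrays. Hsd3b1, Mc2r and Nr5a1 were above background on 6 of 6 liver arrays, Star on 5 and Cyp11a1, the first steroid enzyme, on none. Of the 4 tested markers, 1 was called higher and 3 lower in lung in each set of arrays. Star ran against the sum, with a median of 102 on lung arrays and 63.6 on liver arrays. The part of these markers in the differences was not tested. Under quantile normalization 5 genes of this list were higher and 4 lower in lung acrylamide arrays.

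Of 12 tested genes of the kallikrein and kinin system, 11 were called in acrylamide arrays, 2 higher and 9 lower in lung, and all 12 in control arrays, 2 higher and 10 lower. The share of all genes called was 74.9% in acrylamide arrays, 44.3% being lower in lung, and 73.4% in control arrays, 42.9% being lower. Kng2, a kininogen, averaged 42.3 ± 27.3 in lung control arrays and 87784 ± 5107 in liver control arrays (SD, n = 3 each), and its difference was -10.51 log2 units in acrylamide arrays and -11.20 in control arrays (limma adjusted p = 3.43e-09 and 2.25e-09). F12, coagulation factor XII, differed by -11.05 in acrylamide arrays and -11.16 in control arrays. Bdkrb2, the bradykinin B2 receptor, was 7.06 log2 units higher in lung acrylamide arrays and 6.18 higher in lung control arrays, where 1 of 3 liver acrylamide arrays and 2 of 3 liver control arrays were above background. Xpnpep2, a membrane aminopeptidase that cleaves bradykinin, was not above background on any liver array and was at least 95.2-fold higher in lung acrylamide arrays and at least 172-fold higher in lung control arrays. The hepatocyte markers given above were also lower in lung, and their part in these differences was not tested.

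Of 18 AT1 receptor signalling genes, 15 were called higher and 1 lower in lung acrylamide arrays, and 14 higher and 1 lower in lung control arrays. Across all genes 30.6% were called higher and 44.3% lower in acrylamide arrays, and 30.5% and 42.9% in control arrays. The list's median was 1.17 in acrylamide arrays, against -0.36 for all genes, and 1.29 in control arrays, against -0.34. Rgs2, which dampens Gq signalling, differed by 2.73 log2 units in acrylamide arrays and 3.02 in control arrays. Grk5, a kinase that desensitizes receptors, differed by 3.09 in acrylamide arrays and 2.94 in control arrays. The lower call was Gna12, a G protein alpha subunit, at -1.27 in acrylamide arrays and -1.13 in control arrays (limma adjusted p = 0.0154), where it was lost without liver control 4, at -0.87. Arrb2, an arrestin, differed by -0.23 in acrylamide arrays (adjusted p = 0.200) and -0.37 in control arrays (adjusted p = 0.0557), where it passed under 6 of the 23 alternatives.

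Of 13 known regulators of Agt and Ren1 transcription, 4 were called higher and 6 lower in lung acrylamide arrays, and 3 higher and 6 lower in lung control arrays. Calls covered 74.9% of all genes in acrylamide arrays and 73.4% in control arrays. Hnf4a, a liver nuclear factor, differed by -10.35 log2 units in acrylamide arrays and by -10.94 in control arrays (limma adjusted p = 5.83e-10 and 4.24e-10). Cebpd, an acute-phase factor, differed by 3.67 in acrylamide and 3.45 in control arrays, and Rbpj, the Notch pathway factor that binds the renin promoter, by 1.63 in acrylamide and 1.53 in control arrays. Under quantile normalization the calls were 6 higher and 6 lower in lung in each set.

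**Figure D4:**
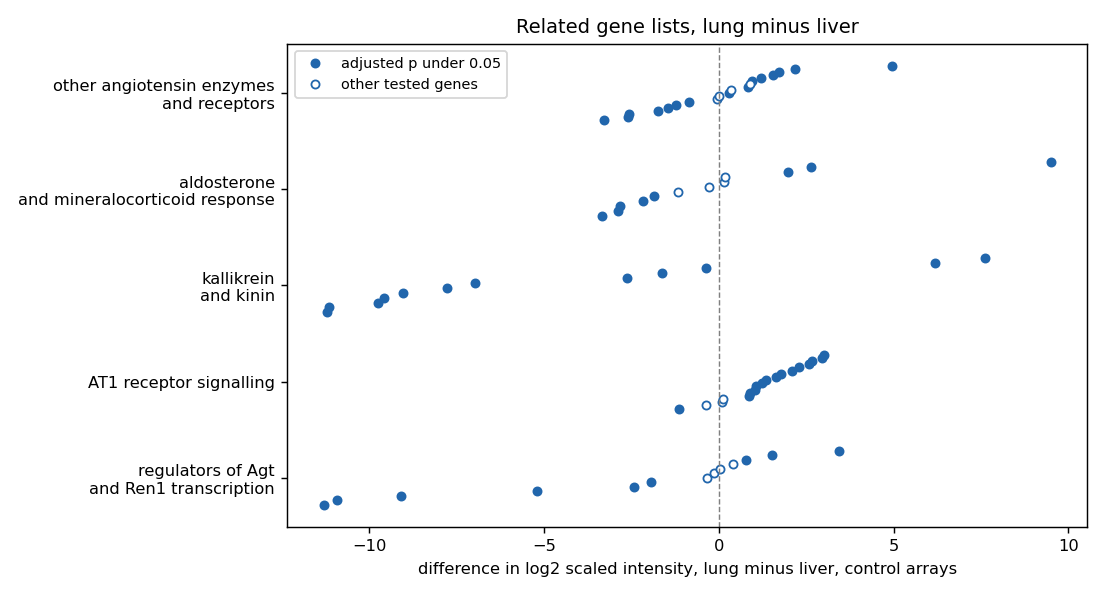
Lung minus liver difference in log2 scaled intensity between control arrays for every tested gene of the 5 lists, filled where the adjusted p was under 0.05. The kallikrein and kinin list holds 10 genes called lower in lung, down to -11.20, and the AT1 receptor signalling list holds 14 called higher.

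The second comparison asked what acrylamide, a reactive industrial and food-borne chemical, did to these genes within each tissue. In liver 0 of 7 tested members were called, against 0.0% of 21076 genes (limma adjusted p under 0.05), and no member reached an unadjusted p under 0.05, against 6.12% of genes. Acrylamide and control arrays overlapped for all 7 tested members, where 12.2% of genes did not overlap. The difference was higher with acrylamide for 5 members and lower for 2, where 46.8% of all genes lay higher, with a median of 0.11, against -0.02 for all genes. Agt, at the values given above, differed by -0.24 ± 0.18 log2 units (95% confidence interval -0.68 to 0.19, SE, n = 3 per group, adjusted p = 0.810). Ren1 differed by 0.06 ± 0.20 and Ace by -0.11 ± 0.36. Enpep differed by 0.23 ± 0.29 (-0.49 to 0.95) and Agtr1a by 0.17 ± 0.17 (-0.25 to 0.59). Agtr2 differed by 0.11 ± 0.36 and Agtrap by 0.16 ± 0.18, and adjusted p-values of the 7 members lay between 0.810 and 0.958. Agtr1b was not tested, its brighter spot being above background on no liver array; its second spot was above background on liver acrylamide 27 alone.

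Liver acrylamide 30 was the lowest of the liver acrylamide arrays for Ace, Enpep and Agtr1a and the highest for Agt, Ren1, Agtr1b, Agtr2 and Agtrap. Without it, Enpep differed by 0.56 (limma adjusted p = 0.193), Agt by -0.38 (adjusted p = 0.291) and Agtr1a by 0.31 (adjusted p = 0.339). The second Enpep spot read 96.9, 99.4 and 75.8 on liver acrylamide arrays, against 64.6, 71.3 and 54.2 on liver control arrays. These did not overlap, with a difference of 0.52, while the brighter spot overlapped. All 8 macrophage markers lay higher and 7 of 8 hepatocyte markers lay lower on liver acrylamide arrays, none of them called. The summed alveolar type 2 markers were 8092 to 19930 on liver acrylamide arrays and 8950 to 9815 on liver control arrays. Their mean log2 level was -0.95, -1.79 and -3.30 on liver acrylamide 27, 29 and 30, and -3.98 to -3.63 on liver control arrays. For club and ciliated airway cell markers it was 0.44, 0.22 and -1.67 on the same acrylamide arrays. On liver control arrays it was -1.39 to -1.24. The part of these in the members' differences was not tested.

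In lung 0 of 8 members were called, against 0.0% of 22226 genes, and none reached an unadjusted p under 0.05, against 4.95% of genes. All 8 overlapped, where 10.9% of genes did not, and 4 lay higher and 4 lower, where 48.4% of all genes lay higher, with a median of 0.01 against -0.01 for all genes. Agt differed by 0.21 ± 0.18 log2 units (95% confidence interval -0.24 to 0.66, SE, n = 3 per group, limma adjusted p = 0.999). Acrylamide arrays 28 and 29 were above all controls for Agt and array 30 below them. All 8 hepatocyte markers also lay higher on lung acrylamide arrays, none of them called, with sums of 15984 to 34325 against 15243 to 32759 on lung control arrays, and their part was not tested. Ace differed by 0.04 ± 0.13 (-0.29 to 0.36), Ren1 by -0.02 ± 0.12 and Agtrap by -0.03 ± 0.12 (-0.32 to 0.27), the members with the narrowest intervals. Enpep differed by -0.21 ± 0.18 (-0.66 to 0.23), Agtr1a by 0.08 ± 0.20, Agtr1b by -0.05 ± 0.20 and Agtr2 by 0.17 ± 0.29. Lung control 6 read highest of all lung arrays for Agtr1a, Agtrap and Enpep. The second Agtr1b spot differed by 0.74 without overlap, reading 13.3, 14.6 and 16.9 on acrylamide arrays and 11.3, 13.1 and 4.8 on control arrays.

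**Figure D5:**
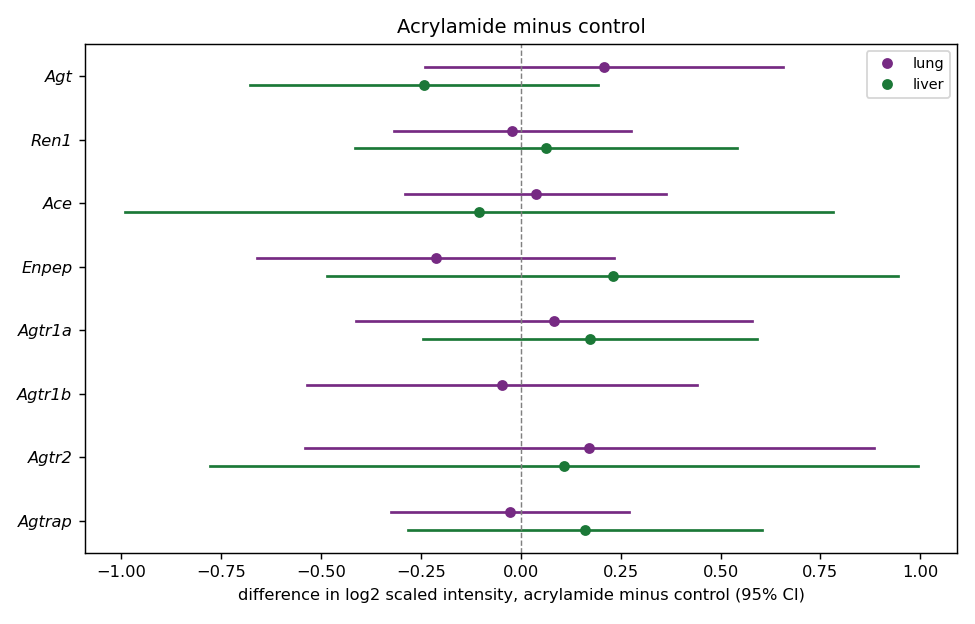
Acrylamide minus control difference in log2 scaled intensity for each member with its 95% confidence interval from limma, in lung (purple, upper) and liver (green, lower), n = 3 arrays per group. All 15 intervals include 0, and Agtr1b has no liver value because it was not tested there.

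In neither tissue was a gene of the 5 lists called with acrylamide, and those with the largest differences are given as values. Among the other angiotensin enzymes in liver, Klk1 differed by 0.48 log2 units, Thop1, thimet oligopeptidase, by 0.32, the mast cell chymase Mcpt4, above background on 2 of 3 liver acrylamide arrays, by -0.61 and Prcp, a carboxypeptidase of angiotensin II, by -0.26. In lung the same list gave 0.31 for Mcpt4, 0.26 for Thop1, -0.27 for Prep, a prolyl peptidase, and -0.18 for Lnpep, the angiotensin IV binding aminopeptidase.

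For the aldosterone list in liver, Sgk1, a kinase induced by the mineralocorticoid receptor, differed by 0.43, Cyp11b1 by 0.11, Fkbp5 by -0.53 and Cyp21a1 by -0.35. In lung Fkbp5 differed by 0.53 (limma unadjusted p = 0.0341, adjusted p = 0.999), Tsc22d3, a glucocorticoid-induced gene, by 0.24, Hsd11b2, which inactivates cortisol and corticosterone, by -0.96 at a spot above background on 1 of 3 acrylamide and 3 of 3 control arrays, and Nr3c2, the mineralocorticoid receptor, by -0.53 (adjusted p = 0.964). For the kinin list in liver, the carboxypeptidase N subunits Cpn1 and Cpn2 differed by 0.27 and -0.25, Klkb1, plasma kallikrein, by 0.11 and Kng1, a kininogen, by -0.19. In lung Bdkrb2 averaged 1214 ± 115 on acrylamide arrays and 745 ± 58.9 on control arrays (SD, n = 3 each). Its groups did not overlap, and the difference was 0.70 ± 0.12 (SE, limma unadjusted p = 0.00102, adjusted p = 0.909). Kng2 differed by 0.78 at low levels and Klkb1 by -0.02. Apart from Klkb1, 11 of the 12 kinin genes lay higher with acrylamide in lung, where 48.4% of all genes did, and none was called. All 8 hepatocyte markers also lay higher in lung, with overlapping sums, and their part was not tested.

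For AT1 receptor signalling in liver, Gna12 and Ncf1, an NADPH oxidase subunit, had the largest positive differences, at 0.59 and 0.35, and Plcb1, a phospholipase C, and Prkca, a protein kinase C, the largest negative ones, at -0.52 and -0.32. In lung Gna12 differed by 0.46, Gna13 by 0.07, Rgs2 by -0.52 and Itpr1, a calcium release channel, by -0.32. Among regulators, Cebpa differed by 0.33, Cebpd by 0.24, Stat3 by -0.63 and Creb1 by -0.40 in liver, and Cebpd by 0.46, Cebpa by -0.23 and Esr1, the estrogen receptor, by -0.18 in lung.

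The difference between the tissues in the acrylamide effect was tested as an interaction over all 12 arrays. None of the 8 members was called, against 0.0% of 23283 genes, and none reached an unadjusted p under 0.05, against 4.44% of genes. The effect in lung minus that in liver was 0.45 ± 0.26 log2 units for Agt (95% confidence interval -0.13 to 1.03, SE, n = 3 per group, limma adjusted p = 0.994) and -0.44 ± 0.37 for Enpep (-1.26 to 0.38). It was -0.98 ± 1.02 for Agtr1b, which rests on liver values that were not above background. For Ren1, Ace, Agtr1a, Agtr2 and Agtrap it lay between -0.19 and 0.14.

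No gene of the 5 lists was called in this interaction. Among the other angiotensin enzymes and receptors, Mcpt4 gave 0.91, Cma1, a chymase, 0.24, Klk1 -0.43 and Mas1, the angiotensin 1-7 receptor, -0.19, with Mas1 above background on 2 of 3 lung acrylamide and 1 of 3 lung control arrays. In the aldosterone list Fkbp5 gave 1.05 (unadjusted p = 0.0229, limma adjusted p = 0.994), Tsc22d3 0.44, Sgk1 -0.53 and Hsd11b2 -0.44, whose liver acrylamide values were not above background. In the kinin list Bdkrb2 gave 0.88, Kng2 0.69, Xpnpep2 -0.46 and Cpn1 -0.16, where Xpnpep2 was above background on no liver array and Bdkrb2 on 1 of 3 liver acrylamide arrays. In AT1 receptor signalling Plcb1 gave 0.56, Prkca 0.15, Ncf1 -0.45 and Jak2, a tyrosine kinase, -0.37. Among regulators Hnf4a gave 0.58, Cebpa -0.56 (unadjusted p = 0.0101) and Cebpb -0.14.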

How the data were processed

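RNA of 12 mouse liver and lung samples was measured on one-colour Agilent arrays. The deposited files hold 1 linear intensity for each of 62976 spots, and the submitters' processing notes name Agilent Feature Extraction 10.7. No source used here states whether background was subtracted. The authors' series matrix holds those intensities times 1 factor per array and served as an alternative. Without the 1319 control spots, each array's 75th percentile was subtracted from its log2 intensities. Symbols came from a RefSeq table (GRCm38.p6, for names and promoter windows only) through the Entrez number for 38054 spots and the accession for 715, while 2242 spots kept the file's name and 20646 had none. The brightest spot by mean over 12 arrays stood for a gene. It was tested where that spot exceeded the 95th percentile of 308 negative control spots on at least 3 arrays of the fit. Probe flags for background or saturation were not used here.

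Fits used limma 3.58.1 (lmFit, eBayes) in R 4.3.3 with two-sided tests, Benjamini-Hochberg adjustment and a threshold of 0.05. Acrylamide contrasts used the 6 arrays of a tissue, and tissue and interaction contrasts used all 12 arrays with 4 group means. The fits were tested on simulated data. The number of arrays limits the precision. In each list and comparison, the 2 tested genes with the largest positive and the 2 with the largest negative difference were named, beside all members, except that some are not reported here; single marker genes and Ren2 were named after their values were seen. The members and lists were chosen with earlier results of these data known. Alternatives were other scalings, filters, spot rules and weights, an intensity trend, the row in the title code as a block, the title number as a replicate block and leaving out each array; fits within title rows were added after seeing the data.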

Additional observations from a re-analysis of the deposited data

How the results depend on the processing

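Agt, Ren1, Ace, Agtr1a and Agtrap kept direction and call in both lung against liver comparisons under every alternative that gave a value, with differences in control arrays of -9.15 to -8.65, -2.64 to -2.31, 3.11 to 3.61, -3.99 to -3.56 and 1.69 to 2.33. Agtr1b ranged from 1.93 to 4.07 there and Agtr2 from -1.58 to -0.79. Besides the losses given above, Agtr2 lost its call in acrylamide arrays in the paired fit (-1.29, adjusted p = 0.0591). In acrylamide arrays Enpep was called lower in lung under arrayWeights (-0.49, adjusted p = 0.00638), and it gave 0.27 under quantile normalization, 0.0098 under median scaling and -0.49 to 0.021 on leaving out an array. Quantile normalization moved the split of calls, as printed with the counts, and in acrylamide arrays the split of all genes to 8467 higher and 7960 lower in lung, against 7117 and 10325.

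Numbers 4, 29 and 30 occur in both tissues, and the labels do not say whether a shared number means the same animal. The deviations of same-numbered arrays correlated at -0.06, -0.02 and -0.25 over 15796 genes and no array matched best with its own number. This check rests on few arrays from different tissues and cannot decide whether they were pairs. The main fits therefore used no pairs, and pairing was tried as an alternative only. With the replicate block, a paired fit of the acrylamide arrays that share a number called 11526 genes, against 17442, from fewer arrays, and Enpep gave 0.056. Acrylamide and control arrays share no number, so that no paired analysis of them was possible.

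In liver, 1 fit of all 12 arrays called 2 genes, against 0, and leaving out an array called 0 to 1. Ren1 gave -0.13 and Agtr2 -0.18 under arrayWeights. Cyp11b1 gave -0.38 under quantile normalization. Within title row 1, Enpep gave -0.0053, Cyp11b1 -0.36 and Kng1 0.054. Within title row 2, a difference between single arrays, Ren1 gave -0.24, Agtr2 -0.28 and Agtrap -0.098. Leaving out an array gave -0.38 to 0.19 for Ace, -0.27 to 0.38 for Agtr2, -0.068 to 0.17 for Ren1 and -0.16 to 0.46 for Cyp11b1. In lung, Ace gave -0.0035 under median scaling and -0.019 under arrayWeights, where Klkb1 gave 0.089. The mean of spots gave 0.34 for Agtr1b and 0.078 for Agtrap, and the title row as a block 0.024 for Klkb1. Within row 1, Agtr2 gave -0.11, Gna12 -0.12, Klkb1 0.32, Mcpt4 -0.89 and Thop1 -0.20. Within row 2, Agtr1a gave -0.11, Agtrap 0.041, Esr1 0.13, Gna13 -0.033 and Tsc22d3 -0.33. Leaving out a lung array gave -0.071 to 0.11 for Ace, -0.064 to 0.28 for Agtr1a, -0.22 to 0.12 for Agtr1b, -0.066 to 0.41 for Agtr2, -0.083 to 0.055 for Agtrap, -0.11 to 0.023 for Ren1, -0.032 to 0.17 for Gna13, -0.16 to 0.19 for Klkb1 and -0.16 to 0.67 for Mcpt4.

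For the interaction, arrayWeights called 139 genes and leaving out an array 0 to 136 (136 without liver acrylamide 30 and 8 without liver acrylamide 27), none of them a member. Under arrayWeights Ren1 gave 0.11, Ace -0.17, Cma1 -0.27 and Mas1 1.17, and under quantile normalization Hsd11b2 gave 0.24. Leaving out an array gave -0.15 to 0.42 for Ace, -0.24 to 0.11 for Agtr1a, -1.65 to 0.11 for Agtr1b, -0.21 to 0.45 for Agtr2, -0.20 to 0.047 for Ren1, -0.42 to 0.090 for Cebpb, -0.049 to 0.46 for Cma1, -1.51 to 0.21 for Hsd11b2, -0.88 to 0.64 for Mas1, -0.0062 to 0.28 for Prkca and -0.93 to 0.20 for Xpnpep2. None of the members or list genes named here was called in these cases, and the causes were not tested. Signal over background limits Agtr1b in liver and Agtr2 everywhere, and 3 arrays per group limit every interval.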
